A study of Mus musculus with 33 samples.

Results

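The thymic medulla was compared with the thymic cortex on 14 of the 33 arrays of the series, chosen by their titles alone: 7 arrays of microdissected whole medulla and 7 of microdissected whole cortex. Both tissues came from male C57BL6 mice (C57bl6/J in the descriptions) aged 4 to 6 weeks, and no treatment, transgene or altered allele is named in the labels for either group. RNA of both tissues was prepared with the same microscale kit, made into biotin-labelled cRNA and hybridised to Affymetrix arrays. The other 19 arrays hold 3 arrays each of subcapsular, central and perimedullary cortex and 5 each of sorted cortical and medullary thymocytes. They entered the fit for its estimate of spread, and the subcapsular and perimedullary arrays also gave a separate comparison. The titles call the arrays biological replicates. They do not tie arrays to animals, so arrays may share an animal, and every p-value below measures only the spread between these arrays and may be too small.

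The thymus makes T cells in an ordered path through its tissue. In the cortex, immature thymocytes divide, rearrange their antigen receptor genes and are tested for a receptor that can recognise self MHC. Those that pass move into the medulla, where epithelial cells, dendritic cells and B cells show them self antigens before they leave for the blood. Medullary epithelial cells are known for transcribing genes that are otherwise restricted to skin, gut, glands, muscle or nerve, in part under the control of the nuclear protein AIRE.

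The labels were checked against defining genes. Of 5 markers of medullary epithelium, Aire, Fezf2, Krt5 and Krt14 were called higher in medulla, while Cldn4 was not called (0.68 on the log2 scale). Among 5 markers of cortical epithelium, Psmb11, Prss16 and Ccl25 were called lower, while Ly75 (-0.89) and Krt8 (0.26) were not. Ly75 was called lower with medulla replicate 6 or 7 left out (-1.07 and -1.03). The 2 probe sets of Ccl25 pointed in opposite directions, and their mean differed by -0.97, short of a call. Rag1, Rag2, Dntt and Cd8a, which mark immature thymocytes, were lower in medulla, and Cd4 was not called (-0.50). Of 9 tested markers of neighbouring organs, 4 were higher and 1 lower (median 0.53), with 1 higher on probe sets with a plain identifier suffix. Adipoq and Retn of fat, Slc5a5 of thyroid and Casr of parathyroid were not called. The lymph node genes Cxcl13, Cr2 and Madcam1, of which B cells also express Cr2, were higher by 1.70, 2.20 and 1.62, and Car3, of fat and muscle, was lower at -1.16, but not without cortex replicate 3 (-0.85) or with the mean of its probe sets (-0.82). Fabp4, which fat, macrophages and endothelium also express, was called higher by 1.03, though not with cortex replicate 6 or 7 or medulla replicate 1 left out (0.98, 0.91 and 0.98). These arrays measure bulk tissue, in which fewer cells of a type and less RNA per cell cannot be told apart.

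Signals are on the deposited linear scale, where each array's trimmed mean lies between 492 and 498. The median signal of an array was 128 to 163 in medulla and 93.3 to 118 in cortex, with no overlap, so dim probe sets as a whole sat higher on the medulla arrays. The signal exceeded by 0.1% of probe sets ran from 33358 to 62137 in medulla and from 35990 to 75998 in cortex. Values below are given as the median of 7 arrays with the lowest and highest in parentheses. A log2 fold change is the medulla mean minus the cortex mean of log2(signal + 26.2), a scale that understates the change of dim genes.

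In the comparison of 13463 genes, 2492 were called higher in medulla (18.5% of genes tested) and 724 lower (5.38%). A call needed a limma p-value under 0.05 after Benjamini-Hochberg adjustment over all genes and a log2 fold change of at least 1 in size. The split of 77.5% higher depended on the scaling: quantile normalization gave 2083 higher and 986 lower (67.9% higher), and centring each array on its median gave 1795 and 1512 (54.3% higher). The median log2 fold change over all genes was 0.11 as deposited, -0.03 after quantile normalization and -0.23 after centring, and small differences below are to be read relative to those shifts. Large differences were mostly towards medulla: 265 genes had a log2 fold change of at least 3 and 35 of at most -3, and past 5 the counts were 23 and 5. For 1993 of the 2492 genes called higher (80.0%), every medulla array lay above every cortex array, as it did for 19.0% of all genes tested. Of the 724 called lower, 640 (88.4%) had every medulla array below every cortex array, against 10.9% of all genes. Of the 316 genes named in the text as called, 296 had groups without overlap, a number that includes genes chosen for the lack of overlap. The largest adjusted limma p among the 316 was 0.00469. Counts and checks of named genes here and below leave out Ighm, Slc40a1, Cd163 and Icam2, named only as lower members of their lists.

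**Figure D1:**
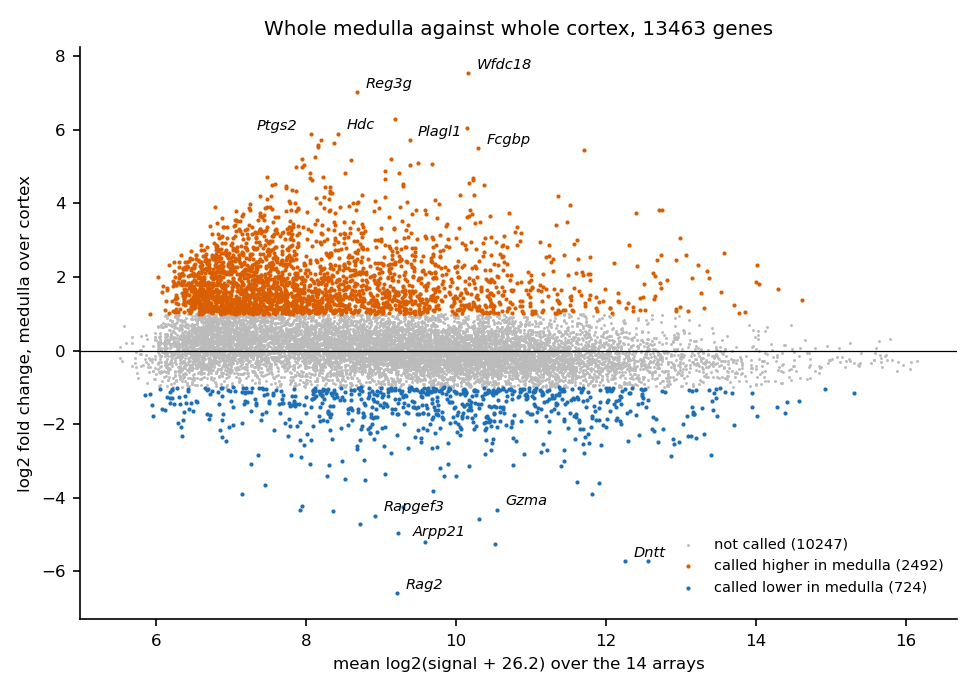
Log2 fold change of medulla over cortex (vertical) against the mean log2(signal + 26.2) of the 14 arrays (horizontal) for 13463 genes, with the 2492 genes called higher in orange, the 724 called lower in blue and the largest named genes labelled. The higher genes outnumber the lower ones and reach further, to 7.55 for Wfdc18 against -6.59 for Rag2.

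Among the genes with the largest excess in medulla stood an enzyme of prostaglandin synthesis, an enzyme of histamine synthesis and secretory proteins. Ptgs2, the inducible cyclooxygenase of prostaglandin synthesis, had a signal of 2086 (1278 to 2765) in medulla and 3.73 (1.72 to 24.5) in cortex. All 7 medulla arrays lay far above all 7 cortex arrays, and the log2 fold change was 5.88 (SE 0.20). Hdc, the enzyme that makes histamine from histidine, measured 2644 (2186 to 3278) in medulla and 13.1 (6.01 to 40.1) in cortex, a log2 fold change of 5.90 (SE 0.19). The zinc finger factor Plagl1 measured 4809 (4432 to 5569.7) in medulla and 74.1 (26 to 98.7) in cortex and differed by 5.72 (SE 0.18), but by 0.49 on its probe set with a plain identifier suffix. Next came Cdhr1, a cadherin known from photoreceptors (5.71), Clca3a2, a secreted chloride channel accessory protein (5.58), Cadps, which primes dense-core vesicles for release (5.54), and Fcgbp, a goblet cell mucus protein (5.51). These 7 genes were chosen among genes in which the lowest medulla array exceeded the highest cortex array.

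At the other end stood genes of varied function, Rag2 with the largest deficit. Arpp21, an RNA-binding phosphoprotein, had a signal of 254 (145 to 329.5) in medulla and 5974 (4569 to 8279) in cortex, and the log2 fold change was -4.58 (SE 0.14). Rapgef3, a cAMP-activated exchange factor for the GTPase Rap, measured 90.6 (4.25 to 144) in medulla and 2323 (1806 to 3119) in cortex (-4.49). Morc1, known from germ cells, measured 29.1 (4.83 to 50) in medulla and 1102 (693 to 1329.9) in cortex (-4.34). Ptcra, the surrogate alpha chain of the pre-T cell receptor, was lower by a log2 fold change of -4.23, with 909 in cortex and 26.9 in medulla. Gzma, which encodes a cytotoxic granule protease, was also among them: 312 (235 to 400.5) in medulla and 6376 (5348 to 8845) in cortex, a log2 fold change of -4.32 (SE 0.13). The groups overlapped in none of these 5 genes, but Arpp21, Rapgef3, Morc1 and Gzma were chosen among genes without overlap. Ptcra was chosen after its values were seen.

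**Figure D2:**
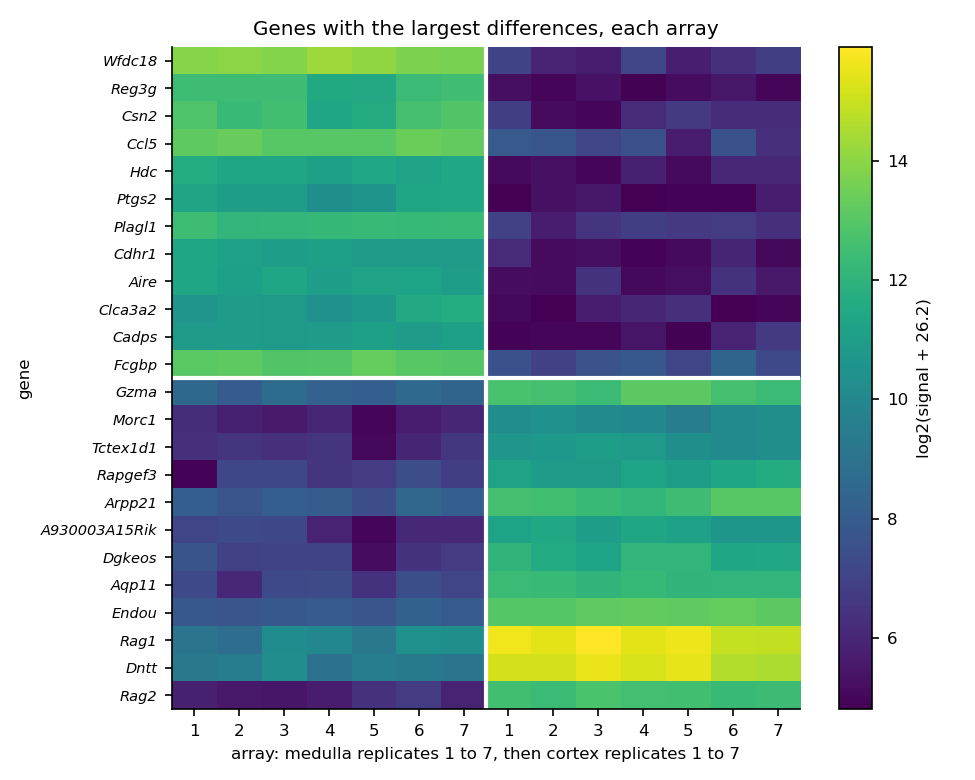
Log2(signal + 26.2) of 12 genes with the largest excess in medulla and 12 with the largest deficit, among genes called with no overlap, on each of the 14 arrays (columns, replicates 1 to 7 of medulla, then of cortex). Every one of the upper 12 rows is brighter on all medulla arrays, and every one of the lower 12 on all cortex arrays.

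Promoters of the medullary genes were read from RefSeq (GRCm38.p6), with 1 window of 250 bases before to 50 after the start for each of 10816 tested genes. The letters TATAAA, the core of the TATA box that binds the basal transcription machinery, were searched on the sense strand 45 to 16 bases before the start. They were found there in 1.27% of genes that were not called. The share was 3.62% in genes higher by a log2 fold change of 1 to 2, 5.38% at 2 to 3, 8.03% at 3 to 4 and 21.8% (12 of 55) at 4 and above. It was 2.08% in all genes called lower and 9.68% (3 of 31) in those at -3 or less. On either strand and anywhere in the window, the letters stood in 8.10% of all tested genes and 13.1% of those called higher. Among all 32851 promoters of the table, 2.14% had the match at 45 to 16 bases. The 12 genes with a match and a log2 fold change of at least 4 were Wfdc18, Reg3g, Aire, Fscn1, Bpifa1, Serpinb2, Dapl1, Rptn, S100a4, 2210407C18Rik, Gp2 and Krtdap; 2210407C18Rik, Dapl1 and Serpinb2 were named for the match after it was seen. The 5 strongest that could be shown are given from 60 bases before to 20 after the start. Sequences run 5′ to 3′ on the gene's own strand (GRCm38.p6), with the match in capitals:

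Wfdc18 (chr11:83708944-83709023, plus strand): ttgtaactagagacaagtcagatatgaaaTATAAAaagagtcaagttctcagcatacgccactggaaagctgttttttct

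Reg3g (chr6:78468855-78468934, minus strand): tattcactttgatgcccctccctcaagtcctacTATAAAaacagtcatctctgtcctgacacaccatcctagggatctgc

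Aire (chr10:78043591-78043670, minus strand): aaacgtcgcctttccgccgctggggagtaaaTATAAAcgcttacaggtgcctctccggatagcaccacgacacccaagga

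Fscn1 (chr5:142960295-142960374, plus strand): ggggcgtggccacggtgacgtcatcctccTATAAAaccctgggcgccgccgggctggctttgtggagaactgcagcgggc

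Bpifa1 (chr2:154142820-154142899, plus strand): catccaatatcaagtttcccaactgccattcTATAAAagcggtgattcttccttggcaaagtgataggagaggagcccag

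The matches began 27 to 31 bases before the start in these 5, which were chosen for a match 45 to 16 bases before it, so the search limits these distances. The same classes ordered by CpG content: the median ratio of observed to expected CpG was 0.772 in genes not called, 0.588, 0.451 and 0.337 in the 3 rising classes and 0.258 in the top class. It was 0.770 in all genes called lower, 0.356 in the 31 at -3 or less and 0.384 in the whole table. The letters GAAANNGAA, the core of the element bound by interferon regulatory factors, stood on either strand in 6.39% of promoters of genes not called, 10.2% of those called higher and 5.55% of those called lower, against 8.56% in the whole table. A gene dim elsewhere could pass the filter on low signal through medulla, while a gene dim on all arrays was left out. Genes not called differ from the whole table in both measures (1.27% and 0.772 against 2.14% and 0.384). The part of this selection in the differences between classes was not tested. A match is a description of the letters and was not tested as a binding site.

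**Figure D3:**
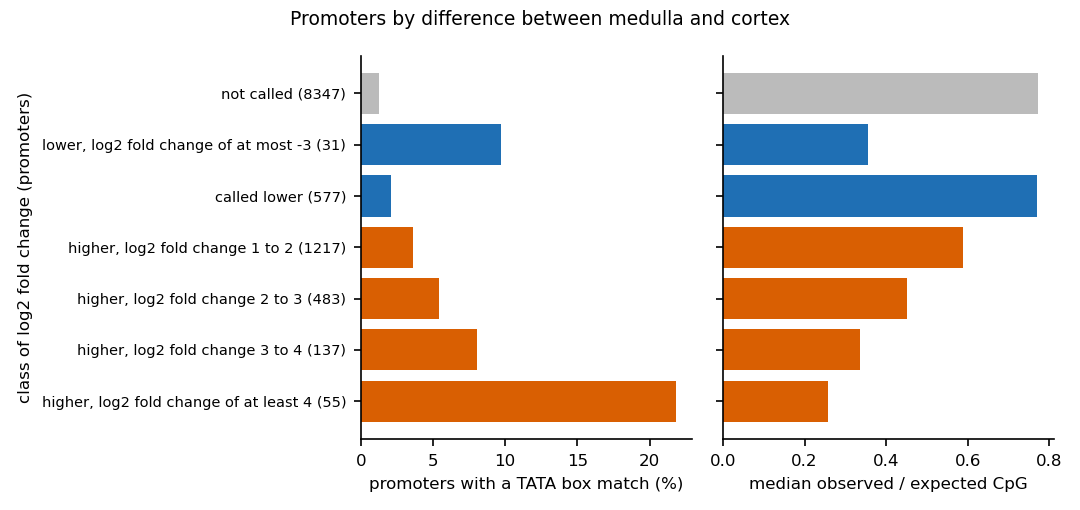
Left, percent of promoters with a TATA box match 45 to 16 bases before the start, by class of log2 fold change; right, median observed over expected CpG of the same promoters. The share with a match goes from 1.27% in genes not called to 21.8% in the class at 4 or more. The CpG ratio goes from 0.772 to 0.258. All promoters of the table, filtered or not, have 2.14% and 0.384, and the part of the filter was not tested.

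For a view by function, 1721 genes were arranged in 53 lists, of which 1391 were tested, 210 did not pass the filter on low signal and 120 had no probe set assigned to them alone. Counts below are of tested members, which differ from all members, and are to be read beside the 18.5% higher and 5.38% lower of all genes and the overall median of 0.11. A gene dim on other arrays could pass the filter through the group in which it was high, so shares of tested members can overstate those of all members. The array held 36 hormone and granule genes (26 tested), 45 of intestine, pancreas and liver (28 tested), 24 of milk and whey-domain proteins (14 tested) and 40 of striated muscle (22 tested).

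**Figure D4:**
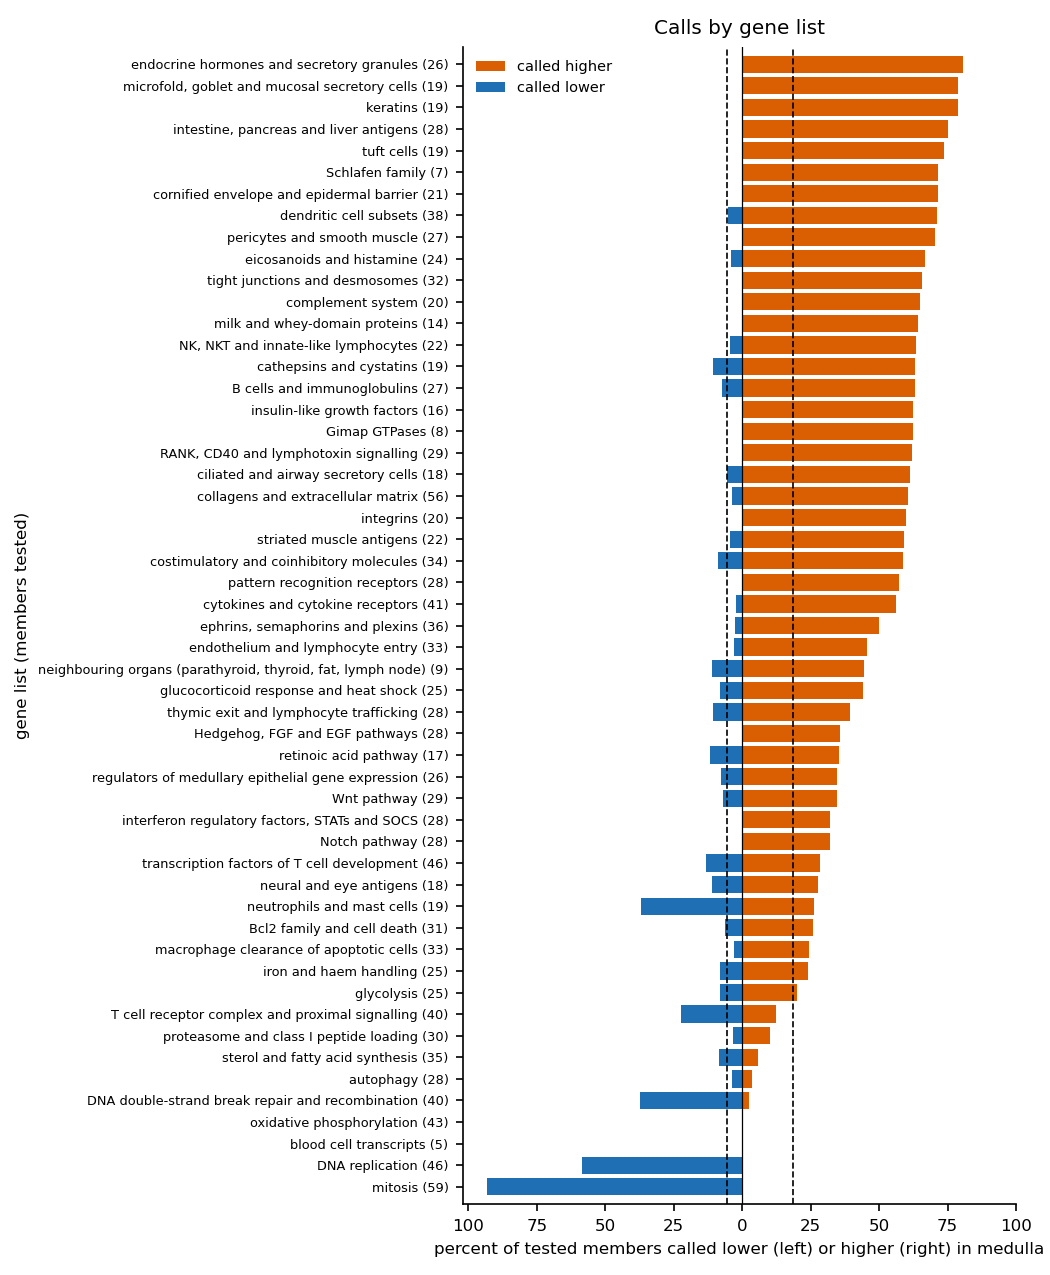
Percent of the tested members of each of the 53 lists called higher (orange, right) or lower (blue, left) in medulla, with the number tested in parentheses. Dashed lines mark the 18.5% higher and 5.38% lower of all genes tested. The keratin, cornified and endocrine lists reach over 70% higher, and mitosis reaches 93.2% lower.

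Epithelial structure set the medulla apart. Of 19 keratin genes tested, 15 were higher and 0 lower, with a list median of 1.97. Krt5, the basal keratin partner of Krt14, had a signal of 6035 (5504 to 6917) in medulla and 414 (308 to 674) in cortex, a log2 fold change of 3.75 (SE 0.15). Keratins of other epithelial layers were higher as well: Krt20 of the gut lining (2.97), Krt23 (2.94), Krt77 and Krt1 of suprabasal epidermis (2.77 and 2.40), Krt17 (2.55) and Krt19 (2.19). Krt8, the simple-epithelial keratin that both compartments express, measured 9955 (9263 to 12241) in medulla and 9070 (6910.3 to 9856) in cortex and overlapped between them.

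Genes of the cornified skin barrier gave 15 higher and 0 lower of 21 tested (median 2.04), which are genes of the outermost epidermis rather than of its basal layer. Rptn, a matrix protein of the cornified envelope, had a signal of 1465 (1052 to 1769) in medulla and 18.7 (2.29 to 44.7) in cortex, a log2 fold change of 4.83 (SE 0.22). Dmkn and Krtdap, secreted proteins of differentiating keratinocytes, were higher by 4.51 and 4.12. Asprv1, the protease that processes filaggrin, was higher by 3.86, and Flg, filaggrin itself, measured 156 (120.2 to 207) in medulla and 20.9 (2.14 to 75) in cortex (2.04). The serine protease Klk7, which sheds corneocytes, was higher by 2.37, and the cystatin Cst6, an inhibitor of the proteases of this layer, by 2.31.

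Junction genes gave 21 higher and 0 lower of 32 (median 1.42). Cldn7 and Cldn1, the tight junction strand proteins, were higher by 4.53 and 3.06 (Cldn1 by 0.73 on its plain-suffix probe set). Cldn7 measured 890.1 (748 to 1192) in medulla and 4.54 (3.45 to 48) in cortex. Marveld2, a protein of tricellular contacts, was higher by 2.44, and Esrp1, the splicing factor of epithelial isoforms, by 2.78. The desmosomal cadherins Dsg2, Dsc2 and Dsc3 were higher by 3.36, 2.04 and 1.41. F11r, a junctional immunoglobulin-like adhesion molecule, was higher by 2.82 on its chosen probe set, and its other probe set pointed the other way.

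Transcripts of mucosal cell types were raised together with these. Of 19 genes of tuft cells, the chemosensory cells of gut and airway, 14 were higher and 0 lower (median 2.01). Rgs13, a regulator of G protein signalling, measured 369.7 (215 to 713) in medulla and 2.74 (0.743 to 4.00) in cortex, a log2 fold change of 3.89 (SE 0.22). Avil and Vil1, which bundle actin in the apical tuft, were higher by 3.28 and 2.72, Gng13, the taste G protein gamma subunit, by 3.05, and the kinase Bmx by 2.53.

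Microfold, goblet and other mucosal secretory genes gave 15 higher and 0 lower of 19 (median 2.40). Gp2, the microfold receptor for fimbriated bacteria, measured 1442 (1157 to 1739) in medulla and 54.1 (8.60 to 146) in cortex, a log2 fold change of 4.27 (SE 0.27). Ccl20, which draws CCR6-bearing lymphocytes, was higher by 4.21, Ccl9 by 3.81, and Spib, a factor needed for microfold cells and also used by B cells and plasmacytoid cells, by 3.83. Tff3, the goblet cell trefoil peptide, measured 693 (488 to 898) in medulla and 22.3 (7.61 to 65.2) in cortex (3.84), and the goblet product Clca1 was higher by 2.40, but by 0.22 on the probe set taken without the filter.

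Airway genes gave 11 higher and 1 lower of 18 (median 1.13; 7 higher with 4 times the offset). Bpifa1, a secreted protein of nasal and tracheal lining, measured 1759 (1287 to 2009) in medulla and 6.36 (3.47 to 58.8) in cortex, a log2 fold change of 5.27 (SE 0.25). Club cell genes Scgb1a1 and Cyp2f2 were higher by 3.37 and 3.30, the surfactant collectin Sftpd by 2.76 and Rsph1, of ciliary radial spokes, by 2.19. Cbr2, a carbonyl reductase abundant in lung, ran the other way at -1.74.

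Genes known from glands and organs were spread over several lists. Of 26 hormone and granule genes, 21 were higher and 0 lower (median 2.05). Calcb, a calcitonin gene-related peptide, measured 3346 (2374 to 4858) in medulla and 92.8 (13.7 to 119) in cortex, a log2 fold change of 5.22 (SE 0.24). Iapp, the islet peptide amylin, measured 1393 (1063 to 1679) in medulla and 6.94 (5.04 to 119) in cortex. The neuropeptides Nts and Tac1 were higher by 3.999 and 3.24, the granule proteins Resp18 and Scg5 by 3.80 and 3.53, and Gcg, which encodes glucagon, by 2.22. On all of these the medulla arrays lay above the cortex arrays, as they did for 19.0% of all genes tested. Apart from Gcg, these genes were chosen as the called members of the list with the largest differences, which favours such separation.

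Genes of intestine, pancreas and liver gave 21 higher and 0 lower of 28 (median 2.11). Apoa1, the main protein of high-density lipoprotein, measured 781 (464 to 924) in medulla and 26.6 (4.76 to 41.5) in cortex (3.90). Fabp6, the ileal bile acid carrier, measured 418 (372 to 633) in medulla and 9.32 (2.92 to 54.4) in cortex (3.51), and Fabp9, a testis fatty acid carrier, was higher by 3.74. Milk and whey-domain genes gave 9 higher of 14 and 0 lower (median 1.29; 5 higher on plain-suffix probe sets). The casein gene Csn1s2a was higher by 3.11, but by 0.07 on the probe set taken without the filter, and the whey-domain genes Wfdc2 and Wfdc17 by 2.55 and 1.58.

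Muscle and nerve were less uniform. Striated muscle gave 13 higher and 1 lower of 22 (median 1.13), with 8 higher after quantile normalization, 8 after median centring and 5 with 4 times the offset. Actn3, the fast-fibre actinin, measured 1387 (998 to 1461) in medulla and 91 (74.2 to 199.6) in cortex, a log2 fold change of 3.31 (SE 0.21). Cardiac Tnnt2 and Myl7 were higher by 2.82 and 2.82, and the giant sarcomere protein Ttn by 2.85 (0.70 on its plain-suffix probe set). Mylpf, the fast skeletal regulatory light chain, was lower at -1.69. Neural and eye genes gave 5 higher and 2 lower of 18 (median 0.38), a smaller share higher than in any list named above. Syt1, the calcium sensor of synaptic release, measured 1286 (1032 to 1800.3) in medulla and 46.6 (12.1 to 127) in cortex (4.12), and Gad1, which makes GABA, was higher by 2.23. Nefm, a neurofilament subunit, and Cnga1, the rod photoreceptor channel, were lower at -1.44 and -1.96.

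Of the regulators of medullary epithelial gene expression, 9 of 26 were higher and 2 lower (median 0.40). Besides Aire and Fezf2, Dnmt3l, a partner of DNA methyltransferases, measured 223 (151 to 248) in medulla and 11.5 (5.03 to 20.1) in cortex (2.60). The pharyngeal pouch factors Eya1 and Pax9 were higher by 2.20 and 1.96, whereas Pax1, another factor of that pouch, was lower at -1.11 on 1 probe set. The other probe set of Pax1 pointed the other way, and the mean of its probe sets was -0.46. Top2a, which dividing cells also express, was lower at -1.77 (-0.55 on its plain-suffix probe set).

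Signals that drive medullary epithelium were higher in 18 of 29 members, with 0 lower (median 1.42). Among the ligands, Lta, lymphotoxin alpha, measured 482 (348 to 575) in medulla and 12.9 (9.45 to 85) in cortex (3.21), Ltb was higher by 1.40, and Tnf by 1.76 with overlapping arrays. Among the receptors, Cd40 measured 1582 (1453 to 1847) in medulla and 217 (98.2 to 305) in cortex (2.98). Downstream, Nfkb2, the precursor of the alternative NF-kB subunit, was higher by 3.09, Traf1 by 3.05 and the ubiquitin ligase Birc3 by 2.08. Tnfrsf11b, the decoy receptor osteoprotegerin that binds RANK ligand, measured 420.2 (100.5 to 927) in medulla and 2.77 (0.731 to 33.3) in cortex, a log2 fold change of 3.59 (SE 0.30). Its medulla arrays were widely spread but all lay above the cortex arrays.

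Antigen presentation differed by its machinery. Dendritic cell genes gave 27 higher and 2 lower of 38 (median 2.05). Ccl17, a ligand of CCR4, measured 876 (734 to 1001) in medulla and 24.4 (4.48 to 60.4) in cortex, a log2 fold change of 4.06 (SE 0.24). Irf4 and Irf8, factors of different dendritic subsets, were higher by 3.36 and 2.06. The integrin chain Itgax measured 1089.8 (733 to 1473) in medulla and 147 (83.7 to 213) in cortex (2.76), and Itgae, found on one conventional subset and on mature CD8 thymocytes, measured 3377 (2689 to 4420) in medulla and 192 (159 to 257) in cortex (3.97). The chemokine receptor Xcr1 was higher by 1.61 with overlapping arrays, and the lectins Clec10a and Mgl2 by 2.02 and 2.17. The 2 lower members, Cd8a (-2.49) and Ccr9 (-1.79), are also expressed by cortical thymocytes.

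The list of cathepsins, their cystatin inhibitors and related lysosomal enzymes gave 12 higher and 2 lower of 19 (median 1.56). Ctss, the invariant chain protease of bone marrow-derived presenting cells, measured 15668 (13725 to 17412) in medulla and 2995 (2014 to 3647) in cortex (2.46), and Ctsl, its counterpart in cortical epithelium, measured 11513 (9987 to 13270.1) in medulla and 37991 (23674 to 40743) in cortex (-1.52). Neither pair of groups overlapped, and these 2 cathepsins ran in opposite directions, though Ctsl fell short of a call after quantile normalization (-0.98). Of the inhibitors, Cst7 was higher by 3.02, and Cst6 is given above. Ifi30, the lysosomal thiol reductase, was higher by 2.55, Ctsh by 2.97 and Ctsw, of cytotoxic lymphocytes, by 3.62. The class I pathway differed in few members, 3 higher and 1 lower of 30 (median -0.31; 6 lower after median centring): the peptide transporter Tap1 was higher by 1.77, its bridge to class I Tapbp by 2.11 and B2m by 1.37 (0.92 over replicates 6 and 7, short of a call). Autophagy genes gave 1 higher and 1 lower of 28 (median -0.02), the lysosomal factor Tfeb at 1.54 and the conjugation protein Atg12 at -1.08.

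Costimulatory genes gave 20 higher and 3 lower of 34 (median 1.38), on both sides of the contact. On the presenting side, Cd70 measured 524 (267 to 673) in medulla and 58.3 (26.8 to 153) in cortex (2.62) and Icosl was higher by 3.43, with its other probe set in the other direction. On the T cell side, Icos was higher by 2.77, Tnfrsf4 (OX40) by 3.04, Btla by 2.94 and Ctla4 by 1.44. The lower members were Cd24a (-1.14), a marker of immature thymocytes, and the Slam receptors Slamf1 (-1.23) and Slamf6 (-1.55, but -0.31 on its plain-suffix probe set), used between thymocytes.

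Cytokine genes gave 23 higher and 1 lower of 41 (median 1.24). Il12b, the shared subunit of IL-12 and IL-23, measured 751 (657 to 1152) in medulla and 45.4 (5.93 to 59.9) in cortex (3.81), and its relative Ebi3 was higher by 2.99. Il15ra, which presents IL-15, was higher by 2.99, and Il2rb, the beta chain that receives it, by 2.65. Il7, the survival factor of thymocytes, measured 1775 (1283 to 2046) in medulla and 797 (538 to 865) in cortex (1.20, and 0.86 after median centring, short of a call). Ifngr1 was lower at -1.78. Of the regulators of such signals, 9 of 28 were higher and 0 lower (median 0.80; 5 higher on plain-suffix probe sets), among them Socs2 (4.18), Cish (2.29), Irf7 (3.07) and Irf9 (2.20). Pattern recognition genes gave 16 higher and 0 lower of 28 (median 1.15), with Tlr1 at 3.24, the beta-glucan lectin Clec7a at 2.87, the RNA sensor Ifih1 at 2.24 and Tlr3 at 2.19.

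B cell genes gave 17 higher and 2 lower of 27 (median 1.30). Blnk, the adaptor of the B cell receptor, measured 2082 (1547 to 3005) in medulla and 166 (118 to 188) in cortex (3.53). Cd79a measured 551 (213 to 894) in medulla and 26.3 (5.47 to 142) in cortex (2.93), Fcer2a was higher by 2.88, Cd72 by 2.73 and Cr2 by 2.20. The lower members were Ighm, the immunoglobulin mu heavy chain, and Jchain, and the lowest value of the list was -2.32. Plasma cell genes did not move one way: Sdc1 was higher by 2.15 and Mzb1 by 1.06 (0.96 without medulla replicate 1, short of a call), while Jchain, the joining chain of secreted antibody, measured 637 (423 to 889.5) in medulla and 2411 (1593 to 4947) in cortex (-2.11). Sdc1 is also expressed by epithelium and Mzb1 by B cells, and their part in these values was not tested.

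NK and innate-like lymphocyte genes gave 14 higher and 1 lower of 22 (median 1.49). Il18r1 measured 1943 (944 to 3463) in medulla and 128 (23.2 to 169) in cortex (3.87), Eomes was higher by 2.79, Zbtb16, the factor of NKT cells, by 2.64, and the homing receptor Cxcr6 by 2.35. The lower member was Gzma. In the sorted thymocytes, prepared with another kit, Gzma had a mean of 4509.7 in 5 cortical and 1691 in 5 medullary arrays.

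Genes of granulocytes and mast cells gave 5 higher and 7 lower of 19 (median -0.43; 3 lower with 4 times the offset). Cpa3, the mast cell carboxypeptidase, measured 28.2 (9.43 to 45.4) in medulla and 445 (331 to 521) in cortex (-3.09), opposite in direction to Hdc, which mast cells also express. Ngp, of neutrophil granules, was lower at -2.12. S100a9 measured 1263 (1061 to 1581) in medulla and 4424 (631 to 7819.6) in cortex (-1.44) and Elane 48.7 (15.8 to 132) in medulla and 201 (19.5 to 317) in cortex (-1.23), and the groups overlapped in both. The highest cortex arrays lay far above the highest medulla array in both genes, and the lowest cortex array lay below every medulla array in S100a9 only. The call of Elane was lost over replicates 1 to 5 (-0.77) and with 4 times the offset (-0.75). S100a8 was not called (-0.43), and the list of red cell and platelet genes gave 0 higher and 0 lower of 5 tested.

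Macrophage clearance genes were mostly not called (8 higher, 1 lower of 33, median 0.49), with 4 higher after median centring and 5 with 4 times the offset or on plain-suffix probe sets. C1qa was higher by 1.37 and Csf1r by 1.39, and Lipa, the lysosomal lipase, was lower at -1.42. Complement genes gave 13 higher and 0 lower of 20 (median 1.09; 8 higher after median centring or with 4 times the offset). Clu, clusterin, measured 5841 (5121 to 8321) in medulla and 231 (124 to 421) in cortex, a log2 fold change of 4.49 (SE 0.25). The first proteases of the classical pathway, C1s1 and C1ra, were higher by 3.26 and 1.94, factor B (Cfb) by 3.10 and the inhibitor Serping1 by 1.82. Iron genes gave 6 higher and 2 lower of 25 (median 0.06, with 5 lower after median centring). Cp, the copper ferroxidase, was higher by 3.21, Heph, its membrane relative, by 2.31, and Hamp, which encodes hepcidin, by 2.64. The lower members were the iron exporter Slc40a1 and the macrophage receptor Cd163, and the lowest value of the list was -2.35.

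Lymphocyte genes split by stage. Receptor complex and proximal signalling genes gave 5 higher and 9 lower of 40 (median -0.23; 1 higher after median centring). Cd8b1, the CD8 beta chain, measured 3881 (3491 to 4767) in medulla and 32269 (19558 to 36415) in cortex (-2.85), and Themis, which tunes the receptor signal during selection, measured 1525 (1285 to 2133) in medulla and 9647 (7499 to 11168) in cortex (-2.56). The Slam adaptor Sh2d1a and the receptor-damping adaptor Sla were lower at -2.76 and -2.13. The higher members included the adhesion receptor Cd2 (1.45) and the NF-kB scaffold protease Malt1 (1.33, and 0.99 after median centring, short of a call).

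Transcription factors of T cell development gave 13 higher and 6 lower of 46 (median 0.42; 10 lower after median centring). Klf2, which turns on genes of exit and homing, measured 4010.5 (3159 to 5240.3) in medulla and 333 (258 to 464) in cortex, a log2 fold change of 3.46 (SE 0.13), and Bach2 measured 3748 (3426 to 4287) in medulla and 414 (378 to 579) in cortex (3.06). The factors lower in medulla belong to immature stages: Myb measured 2863 (2041 to 3397) in medulla and 21771 (13419 to 28127) in cortex (-2.87), Gfi1 was lower at -2.52, Ets2 at -2.30 and the E protein Tcf12 at -1.72, or -0.26 on its plain-suffix probe set. Trafficking genes gave 11 higher and 3 lower of 28 (median 0.76). S1pr1, the receptor that draws mature cells into blood, measured 979 (802 to 1315) in medulla and 141 (86.4 to 232) in cortex (2.65), and Ccr8 was higher by 2.43. Cxcr4, which holds immature cells in the cortex, measured 958 (839.9 to 1144) in medulla and 8283 (5309 to 10386) in cortex (-2.99), and Ccr9, the receptor for the cortical chemokine CCL25, was lower at -1.79.

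Small families of mature lymphocytes leaned to medulla. Of 8 Gimap GTPases, which support lymphocyte survival, 5 were higher and 0 lower, with Gimap3 at 3.06, Gimap7 at 1.85 and Gimap8 at 1.42. Schlafen genes, tied to T cell quiescence, gave 5 higher and 0 lower of 7. Slfn1 measured 2853 (1899 to 3157) in medulla and 95.6 (12.3 to 146) in cortex (4.65), and Slfn5 was higher by 2.40. Members of both families resemble each other in sequence, so a probe set may read a relative. Integrins gave 12 higher and 0 lower of 20 (median 1.38): Itgb8, which activates latent TGF-beta, measured 804 (589 to 2106) in medulla and 23.4 (0.965 to 53.6) in cortex (4.48), and Itgb7, which pairs with Itgae, was higher by 3.09.

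Bcl2 family and death genes gave 8 higher and 2 lower of 31 (median 0.37). Bcl2 itself was higher by 1.87, as were the BH3-only gene Pmaip1 (3.29) and the stress genes Gadd45b (3.71) and Cdkn1a (2.68). Casp4 and Casp1, the inflammatory caspases, were higher by 3.78 and 2.34, while Bid was lower at -1.38. The executioner Casp6 was lower at -1.03, a call lost with the mean of its probe sets (-0.54), over replicates 6 and 7 (-0.73), with 4 times the offset (-0.98) and without medulla replicate 4 (-0.997).

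Cell division genes had the largest lower share among the 53 lists. Of 59 mitosis genes tested, 55 were lower and 0 higher (median -1.77). Kif11, the kinesin that separates spindle poles, measured 597 (315 to 758) in medulla and 3365 (2414 to 3707) in cortex, a log2 fold change of -2.44 (SE 0.12). Bub1b, of the spindle checkpoint, measured 732 (586 to 863) in medulla and 3865 (3663 to 4307) in cortex (-2.38), Ect2, which starts cytokinesis, was lower at -2.41 and Pbk at -2.54. Replication genes gave 27 lower and 0 higher of 46 (median -1.13), with the ribonucleotide reductase subunit Rrm2 at -2.31, the licensing factor Cdc6 at -1.97, Uhrf1 at -1.90 and the clamp loader subunit Rfc4 at -1.97. Every tested member of both lists had a negative log2 fold change, from -2.31 to -0.29 for replication. The median over all genes was 0.11, and the share of all genes with a negative value was not counted.

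Genes that join broken DNA gave 15 lower and 1 higher of 40 (median -0.70). Besides the recombinase genes, Xrcc6, the Ku70 end-binding subunit, measured 911 (669 to 972) in medulla and 11003 (9084 to 12363) in cortex (-3.58), and Lig4, the ligase of end joining, measured 395 (216 to 459.6) in medulla and 3156 (2756 to 5246) in cortex (-3.13). Poll, a gap-filling polymerase of the same pathway, was higher by 1.42 (0.90 over replicates 6 and 7, short of a call).

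Oxidative phosphorylation genes gave 0 higher and 0 lower of 43, yet every member had a negative log2 fold change, from -0.93 to -0.05 (median -0.53). Uqcrc2, a core subunit of complex III, measured 9350 (8951 to 11412) in medulla and 17080 (13616 to 22958) in cortex (-0.86). After median centring 9 were called lower. The median over all genes was 0.11, and the share of equally bright genes with a negative value was not counted. Medulla arrays had higher medians than cortex arrays at a like trimmed mean, and the part of that scaling in these small differences was not tested. Glycolysis genes gave 5 higher and 2 lower of 25 (median 0.34; 2 higher after median centring or on plain-suffix probe sets): Eno3 and Eno2, the muscle and neuronal enolases, were higher by 2.41 and 1.96, while Ldhb and the monocarboxylate transporter Slc16a1 were lower at -1.76 and -2.34. Sterol and fatty acid synthesis gave 2 higher and 3 lower of 35 (median -0.20; 6 lower after median centring), with Acacb, the mitochondrial acetyl-CoA carboxylase, at 2.87 and the sterol enzyme Fdps at -1.74.

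Of the glucocorticoid and heat shock genes, 11 of 25 were higher and 2 lower (median 0.62; 6 higher after median centring and 5 lower). The inducible chaperones Hspa1a and Hspb1 were higher by 1.83 and 2.50. Fkbp5, a target of the glucocorticoid receptor, measured 1305 (923 to 1952) in medulla and 4194 (3653 to 5388) in cortex (-1.65), and Cyp11a1, the first enzyme of steroid synthesis, was lower at -1.93.

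Stromal genes leaned to medulla. Matrix genes gave 34 higher and 2 lower of 56 (median 1.14; 22 higher after median centring). Postn, periostin, measured 4959 (4381 to 5857) in medulla and 385 (239.9 to 518) in cortex (3.67), Timp1, the inhibitor of matrix metalloproteinases, was higher by 3.06, and the collagen chains Col6a1 and Col5a2 by 3.03 and 2.35. Fbln2, fibulin 2, measured 93.7 (19 to 220.2) in medulla and 581 (361 to 679.8) in cortex (-2.26), and Ogn was lower at -1.59, a call lost over replicates 6 and 7 (-0.62) and with 4 times the offset (-0.84). Of the 3 fibroblast markers, the receptor Pdgfra was higher by 1.12 and Col1a1 by 1.13, the latter with overlapping arrays. Both fell short of a call after median centring (0.78 and 0.79), Pdgfra without cortex replicate 1 (0.92) and Col1a1 without cortex replicate 2 (0.87). The proteoglycan Dcn was not called (0.34, and -0.0013 after median centring).

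Pericyte and smooth muscle genes gave 19 higher and 0 lower of 27 (median 1.43). Rgs5, a marker of pericytes, measured 11537 (9811 to 12079) in medulla and 550.2 (462 to 852) in cortex, a log2 fold change of 4.21 (SE 0.16). The contractile genes Tpm2 and Cald1 were higher by 4.24 and 4.09 (Tpm2 by 0.14 on its plain-suffix probe set), Acta2 by 2.95 and Pdgfrb by 1.74. Endothelial genes gave 15 higher and 1 lower of 33 (median 0.90; 9 higher after median centring). With 4 times the offset 8 were higher. Of the 3 defining genes, Kdr, a receptor for VEGF, was higher by 1.28 with overlapping arrays (0.94 after median centring, short of a call), and Pecam1 (0.31) and Cdh5 (0.68) were not called. Other higher members serve lymphocyte entry and vessel walls: Icam1 measured 4692 (4329 to 5549) in medulla and 606 (425 to 846) in cortex (2.87), Selp, P-selectin, was higher by 2.15 and Plvap, of fenestrated vessels, by 2.04. The lower member was Icam2, a relative of Icam1, and the lowest value of the list was -1.13.

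Eicosanoid and histamine genes gave 16 higher and 1 lower of 24 (median 1.77; 10 higher on plain-suffix probe sets), Ptgs2 and Hdc, described above, among the higher. The lipoxygenases Alox12e and Alox15 measured 3263 (2398 to 3950) in medulla and 106 (6.81 to 273) in cortex, and 966 (904 to 1224) in medulla and 12.3 (3.08 to 94.2) in cortex, with log2 fold changes of 4.83 and 4.37. Ptgds, prostaglandin D synthase, was higher by 2.84, and Ptgir, the prostacyclin receptor, by 2.33. Insulin-like growth factor genes gave 10 higher and 0 lower of 16 (median 1.15; 5 higher after median centring and 6 on plain-suffix probe sets), led by the binding proteins Igfbp4 (3.96) and Igfbp5 (2.58).

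Retinoic acid genes were divided, 6 higher and 2 lower of 17 (median 0.87). A pair of paralogous enzymes that break retinoic acid down was called in opposite directions: Cyp26a1 measured 221 (182 to 325) in medulla and 16.5 (7.85 to 91.4) in cortex (2.47), and Cyp26b1 measured 17.9 (9.07 to 155) in medulla and 238 (159 to 303) in cortex (-2.15). The binding proteins Crabp2 and Crabp1 were higher by 2.37 and 2.10, and the retinal reductase Dhrs3 was lower at -1.81.

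Notch genes gave 9 higher and 0 lower of 28 (median 0.70; 4 higher with 4 times the offset, 5 with the mean of probe sets). The ligand Jag1 measured 1451 (1321 to 2308) in medulla and 138 (85.7 to 211) in cortex (3.33), Lfng, the sugar transferase that tunes the receptor, was higher by 2.81, and the target Hey2 by 1.64. Wnt genes gave 10 higher and 2 lower of 29 (median 0.44). The receptors Fzd6, Fzd7 and Fzd1 were higher by 2.24, 2.08 and 1.94, the ligand Wnt10a by 2.22, the receptor Lgr4 by 1.69, and the inhibitor Sfrp1 by 1.44. The ligand Wnt5b was lower at -1.003 with overlapping arrays. The Wnt5b call was lost with any of cortex replicates 1, 5 and 7 or medulla replicates 5, 6 and 7 left out, down to -0.77 without medulla replicate 5. Hedgehog, FGF and EGF genes gave 10 higher and 0 lower of 28 (median 0.77; 6 higher with 4 times the offset), with Fgf21 at 3.35, the hedgehog inhibitor Hhip at 2.54 and the receptor Erbb2 at 2.13. Guidance genes gave 18 higher and 1 lower of 36 (median 0.94; 11 higher with 4 times the offset). Sema4f measured 622 (567 to 889.6) in medulla and 55.1 (8.89 to 110.1) in cortex (3.19), Sema4a was higher by 2.87, their receptor family member Plxnb2 by 2.21, and Plxnd1 was lower at -1.09.

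Genes higher in medulla lay next to each other more often than others did. Of 2483 such genes with a position in RefSeq, 27.8% had a nearest tested neighbour that was also higher, against 16.4% of all genes and 13.96% of genes not called. For genes called lower the share was 14.8%, against 5.56% of all genes. There were 58 unbroken runs of 4 or more neighbouring tested genes called higher and 2 called lower. Many runs are families of related sequence, whose probe sets may read each other's transcripts.

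The S100 run on chromosome 3 (S100a14, S100a16, S100a3, S100a4, S100a5 and S100a6, small calcium-binding proteins) held 6 genes. S100a14 measured 2405 (2262 to 3401) in medulla and 162 (53.4 to 200.3) in cortex (4.04), S100a4 measured 5609 (5333 to 5889) in medulla and 199.8 (148 to 361) in cortex (4.56). S100a5 was the weakest at 1.12, and 0.91 without cortex replicate 5, short of a call, and -0.0014 over replicates 6 and 7. On chromosome 5, 9 neighbours were called higher, 6 of them sensors of double-stranded RNA: Oas1a (3.45), Oas3 (3.19), Oas2 (2.96), Oas1b (2.23), Oas1f (1.14) and Oas1c (1.13). The calls of Oas1f and Oas1c were lost without cortex replicate 3 (0.9997) and without cortex replicate 1 (0.99). Oas1a measured 3424 (2289 to 3589) in medulla and 292 (107 to 410) in cortex. The metallothioneins of chromosome 8 gave 4 of 4: Mt4, the form of stratified epithelium, measured 521 (312 to 651) in medulla and 11.5 (2.24 to 91.4) in cortex (3.42), and Mt2, Mt1 and Mt3 were higher by 2.28, 1.24 and 1.20, of which Mt1 and Mt3 fell short of a call after median centring (0.90 and 0.86). Kallikreins of chromosome 7 (Klk8, Klk7, Klk6 and Klk5) were higher by 2.14, 2.37, 1.57 and 2.22. Class II genes on chromosome 17 included H2-Ob, the beta chain of the peptide-loading modulator, which measured 1451 (1221 to 1499) in medulla and 144 (104 to 282) in cortex (3.02), beside H2-Ab1 (2.46), H2-Aa (1.81) and H2-Eb2 (2.14). A run of 5 lower genes on chromosome 4 held Insl5, an insulin-like peptide, at 61 (46.7 to 93.8) in medulla and 768 (505 to 1044) in cortex (-3.09).

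Cortex next to the medulla was compared with cortex under the capsule on 6 arrays that are no part of the medulla or cortex means, though all comparisons share the estimate of spread. Over all genes, 392 (2.91%) were called higher in perimedullary than in subcapsular cortex and 223 (1.66%) lower. Of the 2492 genes higher in medulla, 317 (12.7%) were higher in perimedullary cortex and 23 (0.923%) lower. Of the 724 lower in medulla, 120 (16.6%) were lower there and 4 (0.552%) higher. The median difference was 0.29 for the first set, -0.39 for the second and -0.003 for all genes. In the other direction, 80.9% of the genes higher in perimedullary cortex were higher in medulla, and 53.8% of those lower there were lower in medulla. The median signal of an array was 90.8 to 95.5 in perimedullary and 78.8 to 85.6 in subcapsular cortex. It was likewise higher in medulla than in cortex. This comparison was made on the deposited scale only, and the part of that shift in the shared calls was not tested.

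Named genes illustrate both directions of that overlap and its exceptions. H2-Ob measured 213, 196 and 198 in subcapsular and 1174, 1191 and 1643 in perimedullary arrays, a difference of 2.56 (SE 0.23). S100a4 measured 63.7, 51.5 and 59.6 in subcapsular and 502, 353 and 396 in perimedullary arrays, a difference of 2.38 (SE 0.22). Itgae measured 179.7, 189 and 166 in subcapsular and 2729, 2070.1 and 2378 in perimedullary arrays, a difference of 3.56 (SE 0.20). All 3 genes were called higher in perimedullary cortex. Among genes with a larger excess in medulla than these, some were called with a smaller difference and some were not. Aire measured 44.2, 47.4 and 35.5 in subcapsular and 105, 146 and 114 in perimedullary arrays, a difference of 1.10 (SE 0.38). Alox12e measured 46.4, 36.3 and 59.2 in subcapsular and 176, 197 and 171 in perimedullary arrays, a difference of 1.51 (SE 0.41). Both were called higher. Ptgs2 measured 1.97, 2.36 and 2.38 in subcapsular and 2.06, 12.8 and 10.1 in perimedullary arrays, a difference of 0.27 (SE 0.31), and Rptn measured 21.6, 6.98 and 18.4 in subcapsular and 16.7, 36.9 and 16.1 in perimedullary arrays, a difference of 0.23 (SE 0.34), and neither was called. Kif11, lower in medulla, measured 2099.6, 1987 and 2369.8 in subcapsular and 974, 1017 and 908 in perimedullary arrays, a difference of -1.13 (SE 0.18) and was called lower, whereas Xrcc6 measured 8324, 8085 and 8188 in subcapsular and 5268, 6005 and 5531 in perimedullary arrays, a difference of -0.55 (SE 0.12) and was not called. Mgp, an inhibitor of calcification, was higher in medulla by 3.81 yet called lower in perimedullary cortex: it measured 511, 326 and 279.6 in subcapsular and 145, 82.6 and 123 in perimedullary arrays, a difference of -1.46 (SE 0.34). Ogn, lower in medulla, measured 459, 376 and 351 in subcapsular and 31.7, 13.3 and 1.42 in perimedullary arrays, a difference of -3.40 (SE 0.38).

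**Figure D5:**
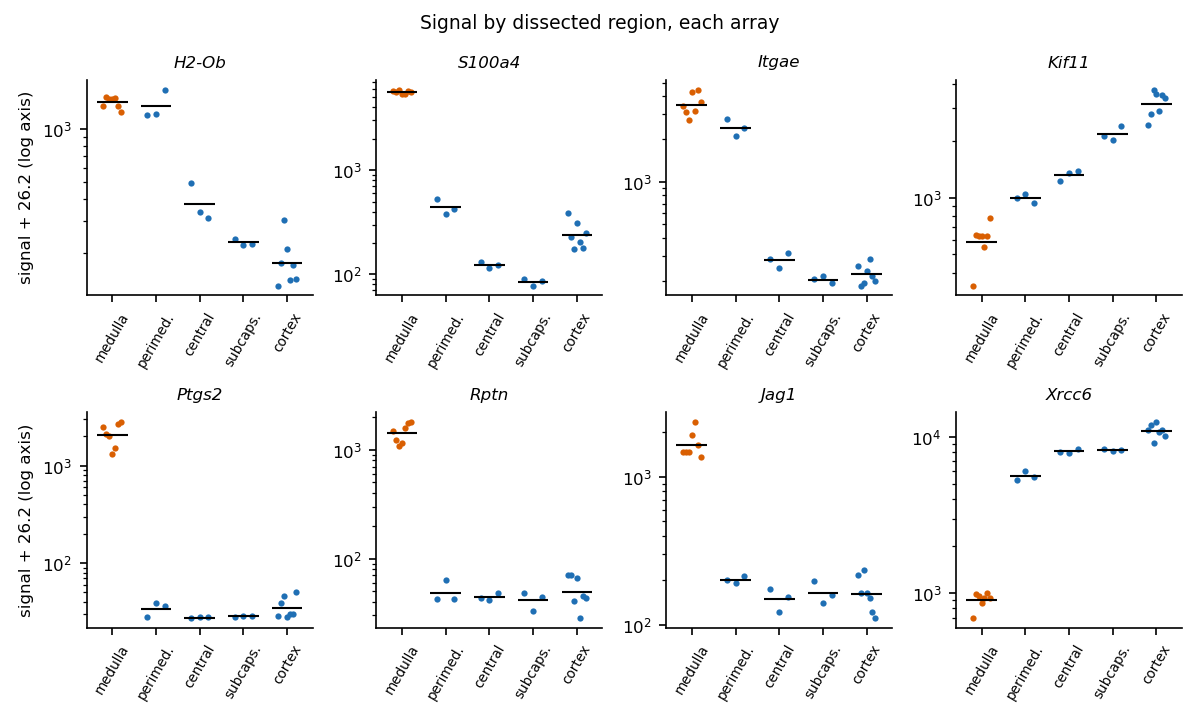
Signal plus 26.2 on a log axis for 8 genes on each array of whole medulla (7), perimedullary, central and subcapsular cortex (3 each) and whole cortex (7), with bars at the group means of the log values. H2-Ob, S100a4 and Itgae lie higher in perimedullary than in subcapsular cortex, while Ptgs2, Rptn and Jag1 are high in whole medulla only among these 5 groups. The signal exceeded by 0.1% of probe sets was 16919 to 19984 on the regional cortex arrays and 35990 to 75998 on whole cortex. Levels of regional and whole-tissue arrays are therefore to be compared with care.

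Spread among arrays differed between the compartments for the genes higher in medulla. Their median SD on the log2 scale was 0.28 over the medulla arrays and 0.52 over the cortex arrays, against 0.27 and 0.34 for all genes. Of these genes 626 had a signal under the array median on every cortex array, where signals are dim. Genes called lower had a median SD of 0.27 in both. The largest spreads among medulla arrays in called genes included that of Pam, which amidates peptide hormones. It measured 15.7 on replicate 6 and 226 to 337 on the other 6, and was called with 1.20 (SE 0.31), a call that fell short after median centring (0.86). Tnfrsf11b spread without a single array apart: replicates 1 to 5 ran from 100.5 to 450.3, and replicates 6 and 7 measured 782 and 927.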

How the data were processed

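RNA of dissected thymus and sorted thymocytes was measured on 33 Affymetrix arrays, of which 14 enter the main comparison. The deposited values are signal intensities on a linear scale; MAS5 and Affymetrix Expression Console 1.0 are named for them, per the submitters' processing notes, and other settings are not given in the sources used here. The table holds 45037 probe sets; the annotation gave 34945 a single gene, 932 several and 9160 none. Signals were not rescaled. They were taken to log2 after adding 26.2, the median over the 33 arrays of their 25th percentile. Probe sets above their array's median on at least 3 arrays were kept (30045), and the brightest kept probe set of a gene (mean log2 over all arrays) stood for it, for 13463 genes in all. Linear models with a mean for each of 7 groups were fitted to all 33 arrays with limma 3.58.1 in R 4.3.3 (trended variance, 26 residual degrees of freedom), with Benjamini-Hochberg adjustment over all genes. The fit was tested on simulated data before use. Probe sets can cross-hybridise between related genes.

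Lists of genes and the rule for naming were chosen with earlier results of these data known. Named genes are the 12 largest differences each way without overlap, up to 6 called members of each list plus up to 3 in the direction of the fewer, marker genes, genes with the largest spread in medulla and members of the runs described. Alternatives covered scaling, offset, filter, choice of probe set, arrays in the fit, array weights, the replicate number as a block and leaving out each array.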

Additional observations from a re-analysis of the deposited data

Results flagged for a closer look

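On the log2 scale, a single array stood apart from the other 6 of its group for 56 of 656 pairs of a named gene and a group: its gap to the nearest array exceeded, as a share of the whole range, the 95% critical value of Dixon's test for 7 values. Chance alone marks about 1 in 20 groups, and the arrays were not tied to animals. Below, the signal of the array is followed by that of its nearest neighbour in the same group.

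Medulla replicate 1 was set apart for 12 genes: Avil 335 against 497, Cfb 347 against 444, Cish 1726 against 1382, Dsc3 588 against 892, Fscn1 35781 against 23169.5, Icosl 496 against 888, Krt19 535 against 279.9, Pmaip1 777 against 973, Rapgef3 4.25 against 64, Sema4f 889.6 against 640.2, Uqcrc2 11412 against 9889 and Xrcc6 669 against 837. Medulla replicate 2 differed in 1 gene: Lig4 216 against 335. Medulla replicate 3 stood apart in 3 genes: Dntt 1192 against 690.2, Krt14 2196 against 2835 and Tnf 451 against 189.7. Medulla replicate 4 was set apart for 1 gene: Cyp26b1 155 against 33.8. Medulla replicate 5 differed in 3 genes: Adipoq 95.4 against 139, Alox15 1224 against 996 and Prss16 591 against 866. Medulla replicate 6 stood apart in 1 gene: Pam 15.7 against 226.

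Cortex replicate 1 was set apart for 5 genes: C1ra 9.45 against 78.1, Cnga1 237 against 386, Il18r1 23.2 against 98.3, Pdgfra 19.2 against 77.7 and Tff3 65.2 against 25. Cortex replicate 2 differed in 4 genes: Ldhb 11327 against 10113, Nfkb2 17.9 against 107, Ptgir 11.4 against 87.8 and Socs2 12.6 against 109.8. Cortex replicate 3 stood apart in 10 genes: Acacb 48.6 against 17.6, Btla 561 against 459.6, Ccl2 7.17 against 63.8, Cdkn1a 56.3 against 189, Cp 204 against 100.2, Gimap8 5297 against 3489, Klk8 145 against 335, Lig4 5246 against 3599, Pecam1 239 against 424 and Top2a 22537 against 16707. Cortex replicate 4 was set apart for 1 gene: Wfdc2 14.4 against 81.4. Cortex replicate 5 differed in 11 genes: Bcl2 508 against 706, Cdh5 4.00 against 99.6, Clec10a 64.6 against 19.1, Gad1 133 against 23.8, Iapp 119 against 33.3, Klk5 141 against 29.4, Krt1 84 against 23, Ms4a4c 9.94 against 73.9, Serping1 346 against 267, Slc16a1 6097 against 7396 and Slfn1 12.3 against 69.6. Cortex replicate 6 stood apart in 1 gene: Resp18 50.5 against 11.7. Cortex replicate 7 was set apart for 3 genes: Cyp26a1 91.4 against 25.3, Krt23 24.3 against 14.6 and Plvap 37.8 against 123.

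No explanation of these values was tested. Where such an array decides a call of a gene, the value without it stands beside the gene.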

How the results depend on the processing

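The 2492 genes higher and 724 lower became 2083 and 986 after quantile normalization and 1795 and 1512 after median centring, which kept 1795 of the former and 724 of the latter. A stricter filter, which tests 9046 genes, gave 1366 and 641, and no filter, with 18193 genes, gave 2738 and 729. With each probe set as its own feature, 4717 were higher and 1455 lower of 30045. An offset of 0.25 times the main one gave 2802 and 806, and 4 times the offset gave 1699 and 559. The mean of probe sets, probe sets with a plain suffix, the fit on 14 arrays alone and array weights kept both counts within 1.5 times. Leaving out each of the 14 arrays in turn gave 2460 to 2549 higher and 720 to 749 lower.

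With the replicate number as a block, 2492 were higher and 725 lower. Same-numbered medulla and cortex arrays correlated in their deviations from the group means by -0.033 to 0.256, and 3 of 7 numbers matched best with their own, so the numbers were not taken to pair the arrays, which the labels do not tie to animals. The block changed no call of a named gene. A split of arrays at the largest gap in their upper tail was not run as planned because it set 1 array against 13. In its place, after seeing the data, replicates 1 to 5 against 6 and 7 entered as a block (2492 and 724). Each set was also fitted alone (2599 and 789 over replicates 1 to 5, 2332 and 826 over replicates 6 and 7). The signal exceeded by 0.1% of probe sets was 34700 and 33358 on medulla replicates 6 and 7, and 43276 to 62137 on the others. In cortex it was 39952 and 35990, and 61472 to 75998 on the others. The correlation was 0.256 for both numbers 6 and 7 and at most 0.108 for the others. The reason was not tested.

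Of the 316 named genes called, 305 kept the call with every array left out in turn and 273 under every alternative that gave a value. Calls were lost for 12 genes after quantile normalization, 15 after centring, 21 with 4 times the offset, 5 with the mean of probe sets, 7 of 268 on plain-suffix probe sets and 15 over replicates 6 and 7. The sign turned for Cdh5 to -0.101 (over replicates 6 and 7), Dcn to -0.00132 (after centring), Krt8 to -0.0784 (after centring), Pecam1 to -0.0305 (after centring), S100a5 to -0.00139 (over replicates 6 and 7). The causes were not tested. Under the stricter filter, where fewer members were tested, the counts that fell both by 3 or more and by over 1.5 times were keratins (15 to 8), cornified envelope and epidermal barrier (15 to 9), tuft cells (14 to 7), ciliated and airway secretory cells (11 to 4), intestine pancreas and liver antigens (21 to 12), endocrine hormones and secretory granules (21 to 8), striated muscle antigens (13 to 3), neural and eye antigens (5 to 2), macrophage clearance of apoptotic cells (8 to 5), endothelium and lymphocyte entry (15 to 5), retinoic acid pathway (6 to 1), insulin-like growth factors (10 to 6), eicosanoids and histamine (16 to 10), Wnt pathway (10 to 4), Hedgehog FGF and EGF pathways (10 to 5), ephrins semaphorins and plexins (18 to 10), pattern recognition receptors (16 to 10) for higher, and neutrophils and mast cells (7 to 4) for lower. Values that fell short of a call were, after quantile normalization, Ccl2 0.75, Cd24a -0.78, Col1a1 0.81, Ctsl -0.98, Kdr 0.95, Mt3 0.91, Mzb1 0.97, Oas1c 0.87, Oas1f 0.82, Pam 0.98, Pdgfra 0.83, S100a5 0.80. After centring, they were Ccl1 0.996, Ccl2 0.68, Col1a1 0.79, Fabp4 0.69, Il7 0.86, Kdr 0.94, Malt1 0.99, Mt1 0.90, Mt3 0.86, Mzb1 0.72, Oas1c 0.79, Oas1f 0.80, Pam 0.86, Pdgfra 0.78, S100a5 0.78. With 4 times the offset, they were Car3 -0.98, Casp6 -0.98, Ccl1 0.87, Ccl2 0.63, Clca2 0.95, Col1a1 0.66, Elane -0.75, Hey2 0.86, Kdr 0.75, Klk6 0.97, Mt3 0.72, Mzb1 0.95, Oas1c 0.83, Oas1f 0.64, Ogn -0.84, Pam 0.82, Pdgfra 0.72, Poll 0.88, S100a5 0.60, Wnt5b -0.58, Xcr1 0.93. Over replicates 6 and 7, they were Atg12 -0.81, B2m 0.92, Car3 -0.40, Casp6 -0.73, Ccl2 0.99, Cd24a -0.81, Col1a1 0.99, Oas1f 0.30, Ogn -0.62, Pam 0.60, Pdgfra 0.96, Poll 0.90, Slamf1 -0.82, Tnf 0.97. Over replicates 1 to 5, they were Elane -0.77, Fabp4 0.82, Mzb1 0.99, Pax1 -0.96, Plxnd1 -0.99, Wnt5b -0.81. With array weights, they were Car3 -0.93, Ccl2 0.80, Fabp4 0.99, Mzb1 0.98. Precision is limited by 7 arrays a group and by dim signals: 626 genes called higher lay under the array median on every cortex array.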

Other observations

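Runs of neighbouring genes higher in medulla included several families of interferon-responsive and secreted proteins. The Ms4a run on chromosome 19, tetraspanning membrane proteins of lymphocytes and myeloid cells, held 7 tested genes, among them Ms4a4b (3.82), Ms4a4c (4.07), Ms4a6b (2.03) and Ms4a6d (1.81). Ms4a4b, known from T cells, measured 25861 (23264 to 28914) in medulla and 2032 (1314 to 2266) in cortex. On chromosome 1, 5 neighbours of the nucleic acid-sensing Ifi200 family were higher, with Ifi204 at 3.07, Ifi209 at 1.93 and Mndal at 1.96. The guanylate-binding GTPases of chromosome 3 gave 4 of 4, Gbp3 at 2.24 and Gbp2 at 1.69, and the ligands of the receptor CXCR3 on chromosome 5 included Cxcl10 at 2.30 and Cxcl11 at 2.09. Ifit1 and Ifit3, of a run of 4 on chromosome 19, measured 3969 (3544 to 4931) in medulla and 501 (369.5 to 544) in cortex, and 3156 (2422 to 4451) in medulla and 424 (326 to 478) in cortex, with log2 fold changes of 3.08 and 2.96.

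The Ccl2 run on chromosome 11 held 5 chemokine genes: Ccl2 (1.02), Ccl11 (3.49), Ccl12 (2.76), Ccl8 (2.02) and Ccl1 (1.34). The call of Ccl2 was lost with cortex replicate 3 or 7 or medulla replicate 1 or 7 left out (0.75 to 0.98). The Clca run on chromosome 3 held 5 genes, from 1.78 to 5.58. Genes of these families resemble each other, so a probe set may read more than its own gene.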
